A study of Homo sapiens with 3 samples.

Results

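Cytosolic ribosomal protein genes encode the proteins of the large (RPL) and small (RPS) subunits of the 80S ribosome. The genes were taken by name from the MATR3 cluster tables: RPL or RPS followed by a digit, or RPLP0, RPLP1, RPLP2 or RPSA, without RPS6K kinases and without pseudogenes. By this rule 83 gene names of 13542 in all carried at least 1 MATR3 cluster, and they held 1119 of the 388807 clusters of the 3 replicates. The rule used names only, not values. It also takes in near-copies such as RPS27L, read-through names such as RPL17-C18orf32 and the antisense RNA RPL34-AS1.

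RNA bound to MATR3 was recovered by PAR-CLIP, a crosslinking and immunoprecipitation method, from HEK293-WT, the unmodified form of a widely used embryonic kidney cell line. The labels give no treatment and no control library, so all 3 biological replicates form 1 group, and each comparison below sets gene sets against each other inside a replicate. The design text also names RNA-seq, which is not analysed here, so transcript abundance was not taken into account in any value below, and cell identity was not checked against markers.

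MATR3 (matrin 3) is a nuclear matrix protein with tandem RNA recognition motifs that binds pyrimidine-rich RNA, mainly in introns, and regulates splicing. Ribosomal protein genes are short, are transcribed at high rates and make mRNAs that begin with a terminal oligopyrimidine (TOP) tract, through which their translation is tied to growth signals. Many of them host small nucleolar RNAs (snoRNAs), which guide chemical modification of ribosomal RNA, in their introns. In PAR-CLIP a photoreactive uridine analog is crosslinked to the bound protein and read as C, so T-to-C changes in a read mark contact with the protein.

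The recurrent sites are shown first, since they are the stretches of ribosomal protein RNA that carried a cluster in every replicate. In all, 17 genes had a cluster that overlapped clusters of both other replicates, and 14 sites in 11 genes had bases covered by clusters of all 3. The shared stretch was 2 to 69 nt long, with a median of 32 nt. Sites with at least 30 shared bases, 7 in 6 genes, are printed below 5′ to 3′ on the transcribed strand, with shared bases in capitals; this length limit was set after the sites were seen. T stands for U of the RNA, sites that the deposited tables place in UTRs are cut to 30 bases, and the RPL6 cluster to 200. The sequences are those of the deposited clusters, and all 1119 clusters matched hg38 at their coordinates.
RPL13A: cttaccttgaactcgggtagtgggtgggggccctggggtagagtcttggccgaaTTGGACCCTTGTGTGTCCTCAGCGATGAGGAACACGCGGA
RPL14: TTAGACTTGCTCTACCAATTTAGATTTCCA
RPL28 intron 1: CTCCCCTTGCGCCTCAAGGGTCATTGGCGG
RPL28 3′UTR: AGGCCCAGGCAGTGGGGACACATCCAGAGT
RPL32: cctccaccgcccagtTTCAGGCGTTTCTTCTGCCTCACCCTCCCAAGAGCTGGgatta
RPL6: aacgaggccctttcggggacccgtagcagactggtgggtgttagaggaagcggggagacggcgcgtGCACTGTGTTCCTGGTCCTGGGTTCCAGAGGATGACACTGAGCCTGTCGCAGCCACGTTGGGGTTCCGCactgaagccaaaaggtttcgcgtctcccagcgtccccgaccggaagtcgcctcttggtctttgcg
RPS29: AATTCTTGCACTAATTAGGGTTAGAGAAGA

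The RPL6 stretch lay in intron 1 at chr12:112409152-112409351 on the minus strand and its clusters carried 21, 88 and 24 reads in replicates 1, 2 and 3; reads here are those of the whole clusters. RPL6 encodes a protein of the large subunit, and this site had the longest shared stretch. The RPL13A stretch lay in intron 1 at chr19:49487908-49488001 on the plus strand, with 10, 23 and 12 reads. The RPL32 stretch lay in intron 3 at chr3:12838285-12838342 on the minus strand, with 9, 12 and 13 reads. All 3 sites were thus both annotated and placed as intronic in every replicate.

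The RPL28 intron 1 stretch, at chr19:55386041-55386070 on the plus strand, carried 18, 9 and 91 reads and was placed by the deposited tables in the 5′UTR or at its edge. The RPL14 stretch lay in the 3′UTR at chr3:40468296-40468325 on the plus strand, with 16, 31 and 14 reads. The second RPL28 stretch lay in the 3′UTR at chr19:55391118-55391147 on the plus strand, with 59, 26 and 41 reads. The RPS29 stretch lay past the end of the canonical transcript at chr14:49572353-49572382 on the minus strand, with 11, 15 and 7 reads. None of the printed stretches held the letters ATCTT on the transcribed strand, the DNA spelling of a motif reported for MATR3.

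Nearly all genes of the ribosome carried MATR3 clusters in some replicate, and most carried them in all. Of the 83 names, 66 had a cluster in all 3 replicates, 9 in 2 and 8 in 1, and single replicates held clusters in 74, 75 and 75 of them. Against the GENCODE release 44 annotation, the rule takes in 90 protein-coding genes, of which 66 (73.3%) had a cluster in all 3 replicates, where 38.9% of all 20007 protein-coding genes did. With a cluster in any replicate the shares were 91.1% of ribosomal protein genes and 53.1% of all protein-coding genes. The genes were short: their median canonical transcript spanned 4797 nt, against 23073 nt for other protein-coding genes. Among genes with a canonical transcript of at most 10 kb, 60 of 79 ribosomal protein genes (75.9%) carried a cluster in all 3 replicates, beside 16.9% of all 5907 genes of that length. Genes of 1 family share sequence and function and are not independent, so these shares are given without a test.

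Genes found in 2 replicates were RPL7, RPL7A, RPL15, RPL23, RPS13, RPS21, RPS26, RPS27A and RPS28. Among those found in 1 were RPL7L1, RPL17, RPL34-AS1, RPL36AL, RPL41, RPS3A and RPS27. No cluster carried the name of RPL24, RPS25, RPL36A, RPL3L, RPL10L, RPS10-NUDT3 or the other two of the 8 annotated genes without one. RPL24, RPS25 and RPL36A are standard subunits, whereas RPL3L and RPL10L are tissue-restricted copies and RPS10-NUDT3 is a read-through of neighbouring genes. Restricted to the 77 standard subunit genes, 74 had a cluster in any replicate and 60 in all 3. A cluster is listed only from 4 reads and 2 conversion locations upward, so a gene without one had no cluster of its name above those limits. Clusters of another name can still lie in such a gene. Inside the span of RPL36A, clusters named RPL36A-HNRNPH2 were found in all 3 replicates. Among ribosomal proteins whose names the rule misses, FAU, which is made as a fusion with a ubiquitin-like protein, had clusters in all 3 replicates and RACK1 had none.

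The read totals of the family were small and steady. Replicates 1, 2 and 3 held 360, 378 and 381 clusters in these genes, with 5873, 5484 and 6459 reads. That was 0.410%, 0.418% and 0.483% of the reads in gene-annotated nuclear clusters, which numbered 1311446 to 1432842 per replicate. A gene's reads are given below as rpm, its reads over these reads times 1000000. Among genes with clusters in all 3 replicates, the median was 33.9 rpm for ribosomal protein genes and 56.1 rpm for other genes, levels that are not set per length. None of the family was among the 100 leading genes by rpm, and 1, RPL27A at rank 125, was among the leading 1000.

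RPL27A, a protein of the large subunit, stood apart from the rest of the family. It carried 919, 611 and 998 reads in 42, 42 and 46 clusters, which is 618 ± 142 rpm (SD, n = 3). Each of its 3 values was above every value of any other family member. It alone held 14.2% of the family's reads, and the 5 leading genes together held 31.9%. RPL28, also of the large subunit, followed with 271, 320 and 279 reads, or 214 ± 27.8 rpm. RPS24, a small-subunit protein mutated in some patients with Diamond-Blackfan anemia, carried 250, 222 and 309 reads, or 192 ± 34.3 rpm. RPL27A was the only one of these genes whose clusters mostly lay outside the canonical transcript.

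RPL32 of the large subunit carried 259, 157 and 306 reads, or 176 ± 54.7 rpm. RPS29, a zinc-binding protein of the small subunit, carried 314, 368 and 93 reads, or 190 ± 109 rpm. RPS15A carried 235, 151 and 179 reads, or 138 ± 24.7 rpm. RPS29 was thus low in replicate 3 while RPL32 was highest there, and the ranges of RPL28, RPS24, RPL32 and RPS29 overlapped. RPS18 carried 223, 187 and 95 reads and RPL37A 202, 144 and 103. RPS9, RPS27L, RPS19, RPS4X, RPL13, RPS16 and RPL10 complete the 15 leading genes, with means of 83.3 to 94.0 rpm. RPL10, which joins the large subunit late in its assembly, was low in replicate 1 (43 reads, against 177 and 136).

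**Figure D1:**
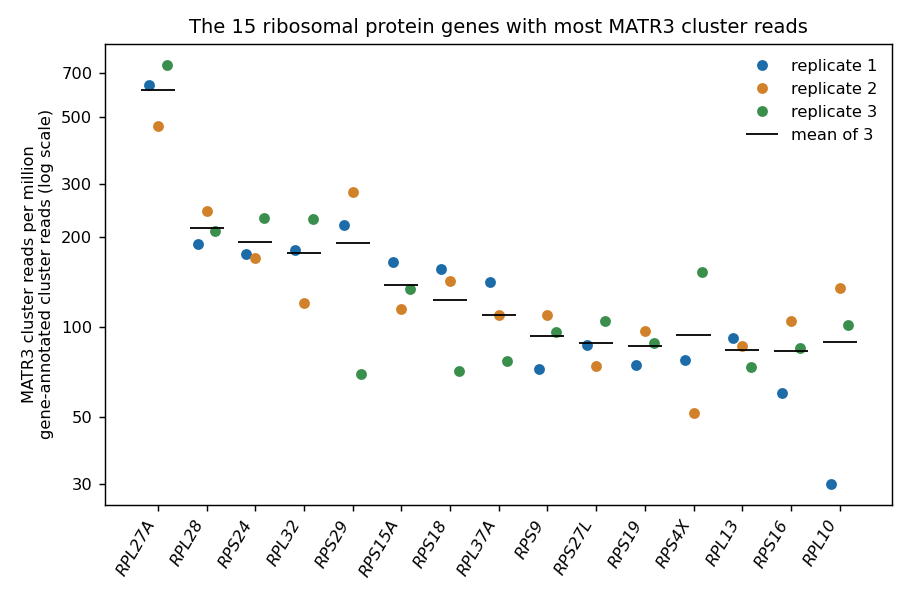
Reads in MATR3 clusters as rpm of the reads in gene-annotated nuclear clusters (y axis, log scale) for the 15 ribosomal protein genes with the largest geometric mean over the replicates (x axis); points are replicates 1, 2 and 3 and the line is their mean. RPL27A, at 466 to 746 rpm, lies above all others, and neighbouring genes overlap.

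In a few genes 1 replicate held most of the reads. RPS23, which lies at the decoding centre of the small subunit, carried 40, 31 and 375 reads, and 208 of the 375 reads lay in 1 cluster of its 3′UTR at chr5:82274807-82275081. RPL35A carried 42, 62 and 303 reads, of which 198 lay in 1 cluster of replicate 3 at chr3:197953471-197953763. In both genes replicate 3 was far above the other replicates, whose values were close. Across family members with clusters in both replicates, Spearman's rho of reads per gene was 0.695 between replicates 1 and 2 (70 genes), 0.627 between 1 and 3 (68 genes) and 0.662 between 2 and 3 (69 genes). For other genes it was 0.854 to 0.865. Genes are not independent replicates, and lower counts per gene give lower correlations.

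The stalk proteins RPLP1 and RPLP2 were below the family median of 33.9 rpm, and RPLP0 and RPSA were above it. RPLP0, the base of the ribosomal stalk, carried 56, 76 and 80 reads (52.3 ± 11.5 rpm), all with cluster centres in introns. RPLP1 carried 25, 17 and 13 reads (13.4 ± 3.88 rpm) and RPLP2 carried 14, 10 and 7 (7.54 ± 2.27 rpm); both are stalk proteins that recruit translation factors. RPSA, the ribosomal protein also known as the laminin receptor, carried 82, 84 and 30 reads (47.9 ± 22.3 rpm). RPLP0 was above RPLP1, and RPLP1 above RPLP2, in each replicate. By subunit, large-subunit genes held 2610 ± 293 rpm in 226 ± 6.66 clusters and small-subunit genes 1761 ± 127 rpm in 147 ± 5.03 clusters. Without RPL27A the large-subunit sum was 1992 ± 190 rpm. The large subunit has more members, 52 names against 31.

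Clusters in ribosomal protein genes were spread over transcript regions differently from those of other genes. By the class that the deposited tables give, introns held 52.5%, 51.3% and 51.2% of the family's clusters in the 3 replicates, against 84.1%, 83.5% and 83.3% of the clusters of other genes. The difference was -31.9 percentage points (SD 0.320). The 3′UTR class held 19.2%, 18.5% and 17.6%, against 5.58%, 5.54% and 6.27%, a difference of 12.6 points (SD 1.18), or 6.44 points by the place of the cluster centre on the canonical transcript. The coding class held 1.94%, 3.97% and 3.15%, against 1.75%, 2.06% and 2.09%, a difference of 1.05 points (SD 0.860), or 0.623 points without replicate 2. The gene sets did not overlap between replicates for introns or the 3′UTR, but did for the coding class. These shares are not set per base. By cluster centre, clusters per kb in canonical introns of the family were 0.752-fold those in its canonical exons, and 1.14-fold in the 77 standard subunit genes. In other protein-coding genes this ratio was 0.640-fold, so against them the family's clusters did not favour introns less per base. It was 1.26-fold in mitochondrial ribosomal protein genes and 0.852-fold in proteasome genes, both above the family's 0.752-fold. In replicate 1 the proteasome ratio was below that of the family. The ratio of the standard subunit genes lay between those of these sets.

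With 3 within-replicate differences, an exact sign-flip permutation test (two-sided) cannot give a p below 0.25. Each of 7 family differences tested in this way (3 classes, recurrence, T-to-C share, C plus T share and density) had 1 sign in 3 of 3 replicates. Each gave p = 0.25 by this exact permutation test, also after Benjamini-Hochberg adjustment. None can therefore pass a 0.05 threshold.

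RPL27A accounts for part of the intron value. Without it, introns held 58.3% ± 1.15 (SD, n = 3) of the remaining clusters, and the difference from other genes was -25.3 points. The sets most like the family in function did not share its low intron share. Introns held 87.9% ± 0.140 of the clusters of mitochondrial ribosomal protein genes, which make the separate ribosome of mitochondria. They held 87.6% ± 1.42 of those of proteasome subunit genes, which encode the main protease of protein turnover. These values are over protein-coding genes. With every gene name of the proteasome pattern, non-coding names included, the proteasome share was 82.5% ± 1.12. Per kb of canonical 3′UTR, the family (0.612 ± 0.0542 clusters) did not stand apart from the proteasome set (0.611 ± 0.0873). The mitochondrial set had 0.253 ± 0.0285. The remaining classes of the family were processed transcript, a class for non-coding isoforms, with 147 clusters, 5′UTR with 52, boundary classes between intron and coding or UTR, and a few others. RPL27A held 110 of the 147. Without it the processed-transcript share was 3.74% ± 0.648, against 13.1% ± 1.58 with it.

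Class and position on the main mRNA were not the same thing. Each cluster's centre was placed on the Ensembl canonical transcript of its gene in GENCODE release 44, which was possible for 1118 of the 1119 clusters. Of these 611 lay in introns, 295 downstream of the canonical end, 137 in the 3′UTR, 50 in coding sequence, 20 upstream and 5 in the 5′UTR. Of the 52 clusters of the 5′UTR class, 49 lay in introns of the canonical transcript. The 5′UTRs of the canonical mRNAs held 5 cluster centres in all, 3 in RPS15A and 2 in RPS27L. These 5′UTRs span only 5.46 kb together. Their density was 0.305 ± 0.106 clusters per kb, against 0.138 ± 0.0184 in 5′UTRs of other protein-coding genes. Of the 206 clusters of the 3′UTR class, 134 lay in the canonical 3′UTR, 44 downstream of it and 28 in introns. All 147 clusters of the processed-transcript class lay downstream, 110 of them in RPL27A.

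**Figure D2:**
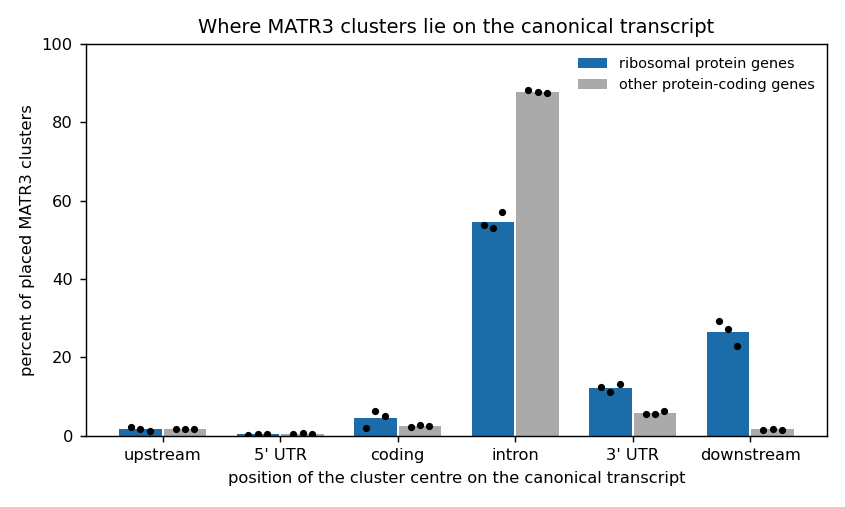
Percent of placed MATR3 clusters (y axis) whose centre lies upstream of, in each part of, or downstream of the canonical transcript (x axis), for ribosomal protein genes and other protein-coding genes; bars are means of 3 replicates and points the replicates. Downstream clusters make up 22.8% to 29.2% in ribosomal protein genes and 1.57% to 1.65% in other genes, and intron clusters 52.9% to 57.2% and 87.4% to 88.3%.

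Clusters past the canonical end made up much of the contrast by place: they were 29.2%, 27.2% and 22.8% of the family's placed clusters, against 1.60%, 1.65% and 1.57% in other protein-coding genes. Without RPL27A the family's share was 18.8% ± 4.10. In mitochondrial ribosomal protein genes the downstream share was 8.05% ± 0.666, and in proteasome genes 0.123% ± 0.212. The family's share rested on 17 genes, 11 of them in all 3 replicates. RPL27A held 110 of the 295 clusters, with centres 416 to 24309 nt past the end of the canonical transcript (median 12848 nt) and 883, 510 and 904 reads. RPS29 held 35 (median distance 9826 nt) with 265, 318 and 70 reads. RPL37A, a zinc-binding protein of the large subunit, held 32 (median 20120 nt) with 117, 115 and 75 reads. These distances exceed the canonical transcripts themselves, which span 7081 nt in RPL27A, 2804 nt in RPS29 and 5243 nt in RPL37A.

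RPS4X held 21 downstream clusters, RPS3 18, RPS24 17, RPS9 15 and RPL13 13. In RPL13 they lay within 2061 nt of the canonical end and outside the annotated gene. The annotated genes reach further than their canonical transcripts: 31972 nt in RPL27A, 28181 nt in RPS29 and 80356 nt in RPL37A, with longer isoforms. Of the RPL27A downstream clusters, 11 also overlapped another annotated gene on the same strand (ENSG00000254665), and 2 of the RPS29 ones overlapped the pseudogene RPL32P29. The transcripts these reads came from were not tested.

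**Figure D3:**
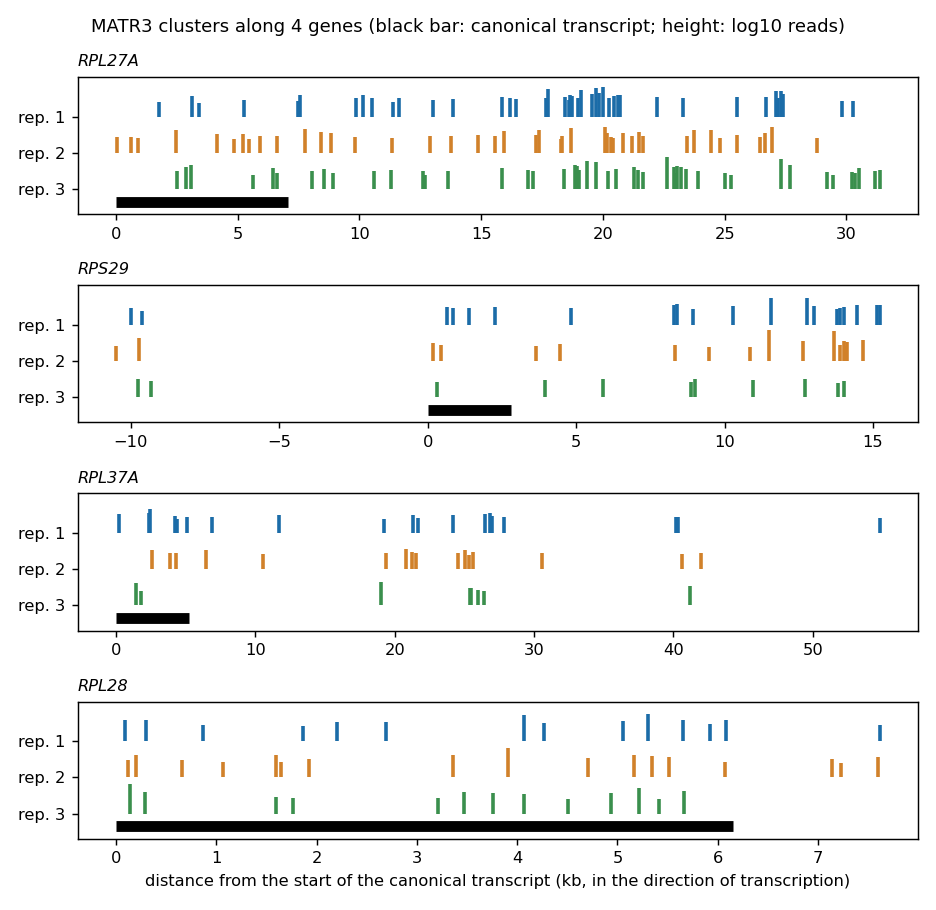
MATR3 clusters along RPL27A, RPS29, RPL37A and RPL28 by distance from the start of the canonical transcript (x axis, kb, in the direction of transcription); each row is 1 replicate, a line's height follows the log10 of its reads, and the black bar is the canonical transcript. In RPL27A 110 of 130 clusters lie past the bar, in RPS29 35 of 48 and in RPL37A 32 of 43, whereas in RPL28 4 of 44 do.

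Clusters in the mature mRNA parts were found in fewer genes than intron clusters. Intron clusters were present in 79 members, 52 of them in all 3 replicates, and clusters centred on canonical exons in 42, 18 of them in all 3. By the deposited coding and UTR classes, RPL28 had most reads (689 over the replicates), followed by RPS29 (569), RPS23 (424), RPL37 (344) and RPL13 (330). RPL28 had 24 cluster centres in its canonical 3′UTR, RPS23 10 and RPL13 8, whereas those of RPS29 lay past the canonical end. RPS15A, RPS18, RPS19 and RPS24 had 22 to 25 cluster centres in introns each,.

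Per length, the family was dense in clusters. Over the annotated gene span it had 0.306, 0.323 and 0.325 clusters per kb in the 3 replicates, against 0.0759, 0.0757 and 0.0715 in other protein-coding genes. The log2 ratio was 2.10 (SD 0.09), or 4.28-fold, and lower against genes no longer than the longest member, at 1.38. That member, RPS10-NUDT3, spans 141185 nt, where the family's median span is 5652 nt, so this limit does not match gene lengths. Over the canonical transcripts of the 77 standard subunit genes alone, introns had 0.645, 0.670 and 0.724 clusters per kb and exons 0.497, 0.636 and 0.666. The standard set leaves out RPS10-NUDT3, whose long introns held no cluster of that name. Against other protein-coding genes with at least 1 cluster, introns were 5.66-fold denser (log2 2.50, SD 0.14) and exons 2.997-fold denser (log2 1.58, SD 0.18).

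The standard subunit genes also exceeded the sets nearest in function, and the whole family did so by less. Standard subunit introns were 2.17-fold denser than those of mitochondrial ribosomal protein genes (log2 1.12, SD 0.18) and 2.17-fold denser than those of proteasome genes (log2 1.12, SD 0.02). In exons the ratios were 2.39-fold (log2 1.26, SD 0.34) and 1.62-fold (log2 0.69, SD 0.26). Over all 90 genes of the rule, introns were 1.20-fold denser than those of either set (log2 0.26, SD 0.19, and log2 0.26, SD 0.03). Their exons were 2.01-fold (log2 1.01, SD 0.34) and 1.36-fold denser (log2 0.44, SD 0.26). All of these were above 0 on the log2 scale in 3 of 3 replicates, with p = 0.25 by the exact sign-flip permutation test (two-sided). Transcript abundance can move these densities and was not tested.

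**Figure D4:**
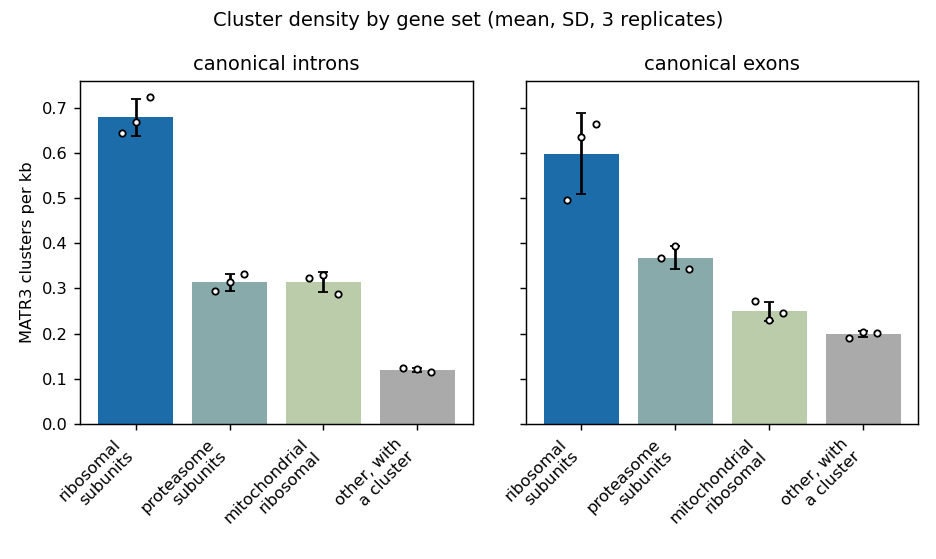
MATR3 clusters per kb (y axis) in canonical introns and canonical exons of the 77 standard ribosomal subunit genes, 40 proteasome subunit genes, 78 mitochondrial ribosomal protein genes and 10539 other protein-coding genes with at least 1 cluster (x axis); bars and error bars are mean and SD of 3 replicates, points the replicates. Ribosomal subunit genes have the highest mean in both panels, 0.680 in introns and 0.599 in exons.

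Within introns, intron 1 held more clusters than its length alone gives. Intron 1 held 24.0%, 25.3% and 26.9% of the intron clusters of standard subunit genes, where it makes up 18.02% of intron bases when each gene is weighted by its clusters. The excess was 7.37 points (SD 1.43), and it was 7.13 points (SD 0.996) in other protein-coding genes, so the family did not stand apart in this. Of the subunit genes' intron clusters, 15.4% ± 0.702 had their centre within 100 nt of the 5′ splice site and 12.8% ± 2.30 within 100 nt of the 3′ splice site, against 1.93% ± 0.0891 and 1.72% ± 0.0832 in other genes. Introns of the family are short, with a median of 476.5 nt against 1556 nt. These windows accordingly make up 13.4% of its intron bases by the same weighting, and 2.80% in other genes. Cluster share minus base share was thus 1.96 points (SD 0.702) at the 5′ site and -0.647 points (SD 2.30) at the 3′ site. At the 5′ site it was above 0 in 3 of 3 replicates. In other genes it was -0.874 points (SD 0.0891) at the 5′ site, below 0 in 3 of 3, and -1.08 points (SD 0.0832) at the 3′ site.

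**Figure D5:**
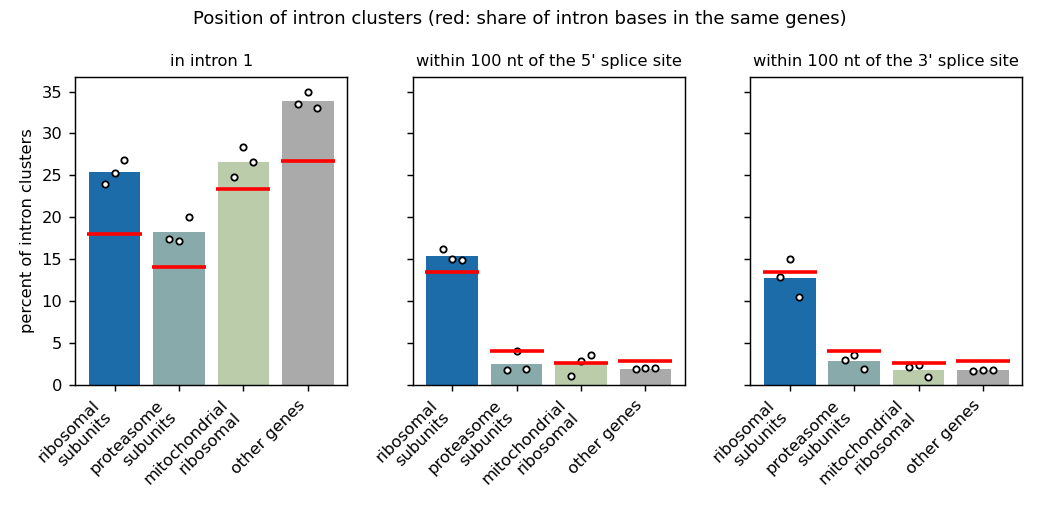
Percent of intron clusters (y axis) centred in intron 1, within 100 nt of the 5′ splice site and within 100 nt of the 3′ splice site, for 4 gene sets (x axis); bars are means of 3 replicates, points the replicates, and red lines the share of intron bases there, weighted by each gene's clusters. Ribosomal subunit genes have 15.4% and 12.8% of clusters at the splice sites, close to the 13.4% of bases there.

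In all, 146 intron clusters of 57 members lay within 100 nt of a splice site, 12 of these genes in all 3 replicates. RPL10 had 9 such clusters, RPL29 7, and RPLP0, RPS14 and RPS24 5 each.

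In each replicate a larger share of family clusters than of other clusters recurred at the same place. A same-strand overlap of 1 nt or more with a cluster of another replicate was seen for 32.8%, 28.0% and 30.4% of clusters, against 21.5%, 21.2% and 22.5%, a difference of 8.72 points (SD 2.31). Between pairs of replicates alone the difference was 3.78 points without replicate 1, 6.64 without replicate 2 and 5.70 without replicate 3. Overlap with both other replicates was seen for 4.56% ± 0.141 of family clusters and 2.52% ± 0.0505 of others. The 5′UTR class, which lies largely in canonical introns, as in RPL28, RPL32 and RPS15A, recurred most of these classes: 64.7% ± 7.01 of its clusters were found in another replicate, against 24.8% ± 1.49 of 5′UTR clusters of other genes. The denser the clusters, the more of them overlap, and the part of density in this difference was not tested.

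The base composition of intron clusters differed. C plus T made up 52.3%, 51.8% and 53.0% of bases in intron-class clusters of the family, against 58.0%, 56.5% and 58.0% in other genes, a difference of -5.09 points (SD 0.534). G plus C was 50.4% ± 0.510, against 47.2% ± 0.719. The composition of the introns themselves was not measured, and its part in these differences was not tested. Of the family's 578 intron-class clusters, 89 were centred downstream and 20 upstream of the canonical transcript. The letters ATCTT on the transcribed strand were present in 6.93% ± 1.15 of intron clusters of the family and 9.69% ± 0.362 of others. They were found in 0 of the 52 clusters of the 5′UTR class, beside 4.98% ± 0.568 of that class in other genes. Clusters of the family were similar in size to others, with a median length of 41.7 nt against 38.7 nt and 9.67 reads against 8.67 (means of the replicates' medians).

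The share of reads with a T-to-C change in intron clusters was 85.0%, 83.3% and 87.1% in the family, against 87.6%, 86.8% and 88.0%. The difference was -2.31 points (SD 1.34). It was -0.733 points (SD 1.18) over clusters with at most 20 reads, where the replicates did not share 1 sign. It was thus small beside the differences by class and position.

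The snoRNAs inside the family's introns were counted apart from their hosts. Of 59 annotated snoRNA genes inside 28 hosts, 27 were overlapped by a cluster, 22 of those names in 1 replicate, 5 in 2 and 0 in 3. Such clusters numbered 8, 15 and 11, with 137, 268 and 207 reads, and all carried the snoRNA's name, so no cluster of the family overlapped a small RNA gene. The 10 snoRNA host genes of the non-coding kind, such as SNHG15 and SNHG16, had clusters in all 3 replicates for 5.

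Other genes of protein synthesis were taken as lists for scale. A cluster in all 3 replicates was found for 12 of 13 translation genes with TOP mRNAs, 15 of 15 ribosome assembly genes, 46 of 78 mitochondrial ribosomal protein genes (59.0%) and 28 of 40 proteasome genes (70.0%), beside 73.3% in the family and 38.9% of all protein-coding genes. EIF3H, a translation initiation factor subunit, carried 516 ± 76.5 rpm, EEF1D, an elongation factor subunit, 265 ± 72.1 rpm, and BOP1, which acts in large-subunit assembly, 243 ± 32.7 rpm. The summed level was 4369 ± 403 rpm over the 90 ribosomal protein genes, 4150 ± 309 rpm over the mitochondrial set and 3107 ± 225 rpm over the proteasome set. The first of these sums overlapped the second in range: replicate 1 gave 4094 and 4387 rpm.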

How the data were processed

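MATR3 PAR-CLIP clusters of 3 replicates of 1 group were used as the authors deposited them, 1 table per replicate with 133088, 131679 and 124040 clusters. Per the file headers, each row gives coordinates, strand, class, gene name, sequence, read counts and the T-to-C share as a fraction. Hg38 is from the submitters' processing notes; the aligner, cluster caller, annotation release and treatment of reads with several matches are not given in the sources used here. Members and lists were chosen with earlier results of these data known. Named genes are the 15 leading members by geometric mean rpm, those with clusters shared by all replicates, the 5 with most coding or UTR reads, members without clusters, and RPLP0, RPLP1, RPLP2 and RPSA; RPL29, RPL35A, RPS3 and RPS14 were named after their values were seen. Some members and sites are not reported here. Mitochondrial and unnamed clusters were left out of shares. Clusters were placed by their centre on GENCODE release 44 canonical transcripts with Python 3.11.15, pandas 2.3.3 and bedtools 2.31.1. Differences were computed in each replicate and tested by an exact two-sided sign-flip permutation test. The calculation was tested on simulated data for 20007 genes, where 8 of 8 planted values were recovered. Reads are PCR products, and p-values measure only the spread between these replicates. Alternatives were leaving out replicates, read and conversion limits, weighting by reads, overlap rules, gene sets and length measures.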

Additional observations from a re-analysis of the deposited data

How the results depend on the processing

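Over 81 recomputed values of 8 results, every difference kept its direction as a mean over replicates, while the counts of genes among them have none. No family cluster overlapped a small RNA gene, so the values recomputed without such clusters only repeat the main ones. Since no p could go below 0.25 (0.5 with 2 replicates), a p at this limit says nothing on stability. With 3 replicates, a p above 0.25 means that the differences did not share 1 sign. This was so for T-to-C with at least 3 distinct reads, at least 3 conversion locations or at most 20 reads, and as a median. It was also so for the coding difference weighted by reads and by place on the canonical transcript. Leaving out a replicate gave 68 to 70 genes in all remaining replicates, intron differences of -32.1 to -31.8 points, 3′UTR 12.1 to 13.3, coding 0.623 to 1.48, C plus T -5.31 to -4.80, T-to-C -3.03 to -1.71 and a log2 density ratio of 2.05 to 2.14; recurrence was 3.78 to 6.64 points, with 1 other replicate left to match. The coding difference, 1.05 points, moved by over 1.5 times without replicate 2 (0.623), with at least 3 conversion locations (0.644) and by place on the canonical transcript (1.89), the last set chosen after seeing the data, as were all settings without RPL27A, the canonical length and the density over genes with a cluster (1.91). By place the 3′UTR difference was 6.44 points. Recurrence was 5.48 in introns alone and 4.29 with 50% of both clusters overlapping. The T-to-C difference was -1.34 with at least 3 distinct reads, -1.33 with at least 3 conversion locations and -0.980 as a median. With 2 clusters per gene required, 47 genes remained. The log2 density ratio was 2.66 without near-copies and read-through names. No paired analysis was possible because all replicates belong to 1 group, so no groups share replicate numbers; differences between gene sets were all taken within a replicate. Low reads per cluster limit single genes most.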

Other observations

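Pseudogenes of ribosomal protein genes, of which GENCODE release 44 lists 1600, rarely gave their name to a cluster. Names of 9 carried 13, 10 and 13 clusters with 117, 106 and 196 reads in the 3 replicates. On the strand opposite to the canonical transcripts of the 90 ribosomal protein genes, 2, 0 and 3 clusters were found. Of the family's own clusters, 64 of 1119 (5.72%) had their centre in another protein-coding gene on the same strand, so their gene name is uncertain; 7 of these carried the name RPL17-C18orf32 and lay in C18orf32.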
